A study of Mus musculus with 28 samples.

Results

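The early and lasting FoxA1 sites were the positions at which FoxA1 was detected on chromatin 12 h after its induction in mouse embryonic stem (ES) cells and was detected again at 24 h and at 48 h. They were chosen by position: an event of the anti-FoxA1 list at 12 h was a member where each of the later anti-FoxA1 lists, 24 h and 48 h, had an event within 100 bp of it. The rule took 6867 of the 8345 events at 12 h, or 82.3% (95% interval 81.5–83.1). The 14 lists of binding events used here held 162571 events in all, each 1 bp wide and placed on mm10. All intervals are Wilson 95% intervals on shares of events and cover counting error alone.

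Every library came from MC1 mouse ES cells of genotype 129S6/SvEvTac, whose line held, at the Rosa26 locus, a factor with a C-terminal His6-FLAG tag and a puromycin resistance gene. Doxycycline (Dox) kept the factor off, so each time is counted from Dox removal, after which cells grew in differentiation medium with serum. Binding was read by ChIP-exo, a form of chromatin immunoprecipitation in which an exonuclease digests the precipitated DNA up to the crosslink. The line MC1(+iFoxA1) was sampled at 0, 6, 12, 24 and 48 h with an anti-FoxA1 antibody (Abcam ab23738) and with an anti-FLAG antibody (Sigma F1804), 1 library and 1 list for each antibody and time. Lists at 24 h that name the factor alone were also used, for MC1(+iFoxA1) (3 libraries, 2 anti-FLAG and 1 anti-FoxA1), MC1(+iFoxC1), MC1(+iFoxL2) and MC1(+iFoxP3) (2 anti-FLAG libraries each). The FoxA1 one is called the combined list, and how libraries were merged into such lists is not stated in the labels or headers. The factor was overexpressed from a transgene in all of these lines, and no label used here says whether each is 1 clone. The MC1(null) control line was sampled at 0 h, and no list of it was used. No expression was measured, so the ES cell identity could not be checked against marker genes. With 1 library per time there was no replicate error and no test across replicates, and the number of reads behind each list is unknown.

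FoxA1 is a Forkhead transcription factor of endoderm, liver, prostate and breast. It is known as a pioneer factor, because its winged-helix DNA-binding domain can bind its motif on nucleosomal DNA, and its binding precedes the opening of enhancers. Undifferentiated ES cells are not among the tissues it is known for. FoxC1, FoxL2 and FoxP3 have related DNA-binding domains and act in mesenchyme, in ovarian granulosa cells and in regulatory T cells.

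The sequence at a few of the sites shows what the events sat on. RefSeq promoter windows (build GRCm38.p6, the same as mm10) cover 250 bases before to 50 bases after each start site, and 87 distinct members lay in 91 of these windows. The Forkhead core was searched on both strands in 4 forms: the consensus TGTTTAC, its variant TATTTAC, the form TGTTTGC and the form TGTTTAT, counting overlapping matches of different forms once per window. At least 1 of them occurred in 62 of the 91 windows that held a member, or 68.1% (58.0–76.8), against 14.9% of all 32851 windows of the same length. Of the 87 members, 50 had the centre of a match within 25 bp of the event, or 57.5% (47.0–67.3). The same held for 51.0% (44.7–57.3) of 239 late events, found at 24 h and 48 h but not at 12 h, and a match lay as near the centre in 3.01% of all windows. The 87 were 1.27% of the members. Whether the event caller used sequence to place events was not examined, so closeness to a match is no independent check of the events. The 7 sites shown were taken because they lie upstream of a protein-coding gene, in bases that no gene of the table covers. They are the 4 with the highest 12 h scores and the 3 at genes of the pluripotency and signalling lists described below. Each is written 5′ to 3′ on the strand of its gene, with a match on either strand in capitals. The event is base 44 in the Stard10 sequence and base 51 in the others.
Stard10, chr7:101316836-101316929, plus strand: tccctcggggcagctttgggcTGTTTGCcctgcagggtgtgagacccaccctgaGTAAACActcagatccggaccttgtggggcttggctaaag
Rptn, chr3:93393471-93393571, plus strand: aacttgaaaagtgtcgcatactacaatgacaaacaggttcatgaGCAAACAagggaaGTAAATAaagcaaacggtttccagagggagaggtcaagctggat
Pml, chr9:58249869-58249969, minus strand: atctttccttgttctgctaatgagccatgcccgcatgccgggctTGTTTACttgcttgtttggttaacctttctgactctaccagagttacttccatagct
H2az2, chr11:6444513-6444613, minus strand: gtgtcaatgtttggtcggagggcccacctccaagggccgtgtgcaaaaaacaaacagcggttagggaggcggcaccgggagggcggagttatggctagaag
Dusp6, chr10:99263003-99263103, plus strand: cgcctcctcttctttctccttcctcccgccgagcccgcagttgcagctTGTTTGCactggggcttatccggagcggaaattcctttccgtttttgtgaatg
Tdgf1, chr9:110946300-110946400, minus strand: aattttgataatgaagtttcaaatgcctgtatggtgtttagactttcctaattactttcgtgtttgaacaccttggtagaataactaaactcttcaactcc
Etv5, chr16:22439700-22439800, minus strand: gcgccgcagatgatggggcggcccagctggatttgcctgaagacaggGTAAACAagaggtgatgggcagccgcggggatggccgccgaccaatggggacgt

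The centre of the nearest match lay 3 bp from the event at Rptn and at Pml, 1 bp from it at Dusp6 and at the same base at Etv5. None of the 4 forms occurred anywhere in the windows of H2az2 and Tdgf1, which says only that these letters were not there. The Pml site, 133 bases upstream of a gene for a nuclear body protein, had anti-FoxA1 scores of 268, 403 and 317 at the 3 times. It was also in the combined FoxA1 list and in the FoxC1, FoxL2 and FoxP3 lists, with scores of 1000, 126, 43 and 102. Dusp6 encodes a phosphatase that switches off ERK, and its site 178 bases upstream scored 53, 163 and 233 at the 3 times. Etv5, an ETS factor induced by FGF signalling, had a site 180 bases upstream that scored 46, 156 and 266. Tdgf1 encodes Cripto, the Nodal co-receptor of ES cells, and its site 192 bases upstream scored 51, 113 and 194. Motif matches were about as frequent in windows that held the 24 h and 48 h events without a 12 h event, at 171 of 270 or 63.3% (57.4–68.9). Windows that held 12 h events that did not last had 12 of 15, or 80.0% (54.8–93.0).

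These scores are the event caller's own whole numbers, between 43 and 1000, and their scale is not given in the labels or files. They were therefore used within a list, as a percentile from 0 for the lowest to 100 for the highest. A member's score in another list is that of its nearest event there, which need not be the strongest within 100 bp. The members' scores and their presence at 12, 24 and 48 h follow from the lists that chose them and are given as a description. The share of 12 h events that became members rose with the 12 h score. It was 62.3% (59.1–65.3) in the lowest decile of the list, with scores of 43 to 46, and 80.6% (77.9–83.1) in the decile with scores of 65 to 74. In the highest decile, with scores of 205 to 1000, it was 98.2% (97.1–98.9). Of the 1478 12 h events that were not members, 579 had an event at 24 h alone, 327 at 48 h alone and 572 at neither time. Close to the 100 bp limit, 74 members had their farther partner 91 to 100 bp away and a median 12 h score of 58. A further 57 events just missed the limit by at most 10 bp, with a median score of 69.

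**Figure D1:**
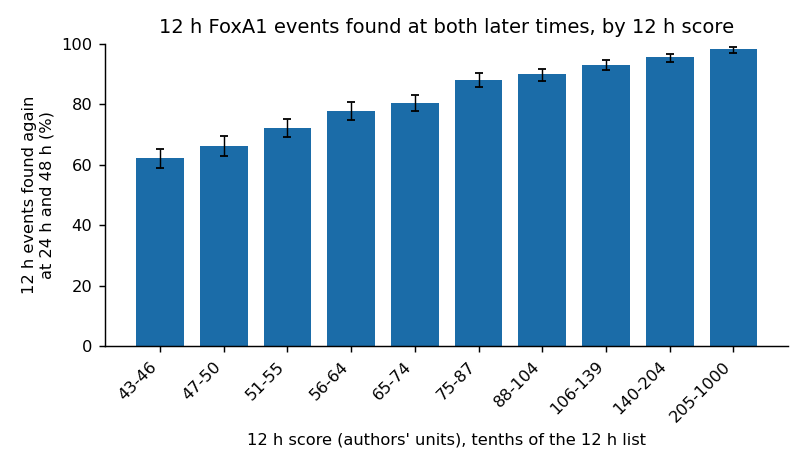
Share of anti-FoxA1 12 h events found again within 100 bp at both 24 h and 48 h (vertical axis, %), by deciles of the 12 h list in order of score (horizontal axis, lowest to highest score of each decile, in the authors' units). Bars are shares with Wilson 95% intervals, and they run from 62.3% in the lowest decile to 98.2% in the highest.

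The members were spread over the whole 12 h list but crowded the upper end of the later lists. Their median percentile was 56.7 (quartiles 30.8 and 78.7) at 12 h, 84.7 (68.5 and 93.7) at 24 h and 84.0 (65.8 and 93.9) at 48 h. As the lists differ in length, these ranks show where the members lay in each list and no change in binding. The 18039 events that were found at 24 h and 48 h but not at 12 h, called late events here, had a median percentile of 50.7 (29.5 and 70.7) in the 24 h list. The members made up 20.9% of the 24 h list and 17.3% of the 48 h list. They were matched by 310 of the 347 events at the score ceiling of 1000 at 24 h (89.3%, 85.6–92.2) and by 401 of the 478 at 48 h (83.9%, 80.3–86.9). The order among members was kept more closely between 24 h and 48 h than from 12 h on. Over the 6867 members Spearman's rho of the scores was 0.77 between 24 h and 48 h, 0.56 between 12 h and 24 h and 0.46 between 12 h and 48 h. These are descriptions over sites that share libraries and a score ceiling. A 24 h event was also found at 48 h in 91.7% (91.1–92.3) of cases where it had a 12 h event, and in 66.3% (65.7–66.9) where it had none.

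**Figure D2:**
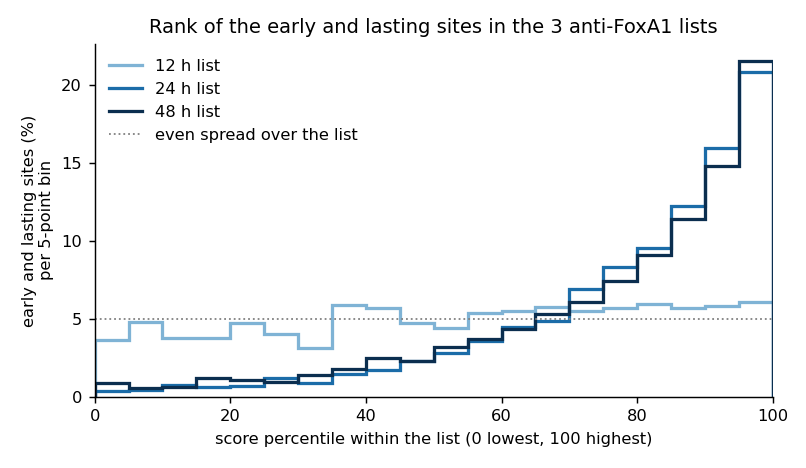
Distribution of the 6867 early and lasting sites over the score percentile of their matched event in the anti-FoxA1 lists at 12, 24 and 48 h (horizontal axis, 0 lowest to 100 highest; vertical axis, % of sites per 5-point bin). The dotted line marks an even spread; the 12 h line stays near it with a median of 56.7, while the 24 h and 48 h lines climb towards the top with medians of 84.7 and 84.0.

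The rule kept partners at 24 h and 48 h within 100 bp, so their closeness is in part built in. From the 12 h event to the nearest one at 24 h the median offset was 6 bp (quartiles 2 and 19), and it was the same at 48 h. The events fell on the identical base in 468 members at 24 h and in 564 at 48 h. In the anti-FLAG lists the median offset was 9 bp at 12 h and 24 h, then 8 bp at 48 h. It was 8 bp in the combined FoxA1 list. Other Forkhead factors lay farther off, with medians of 18 bp for FoxC1, 19 bp for FoxL2 and 23 bp for FoxP3. Members are not all separate sites. Another member lay within 100 bp of 224 of them, and 147 shared their 24 h event with another member.

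The anti-FLAG lists, which the rule did not use, detect the same tagged protein through its tag. They cover the same times as the rule, so differences between the event classes were in part built in. At 24 h, 5316 members had an anti-FLAG event within 100 bp, or 77.4% (76.4–78.4), where the share of all 12 h events was 67.5%. At 48 h the share was 63.1% (62.0–64.2) and that of all 12 h events 53.4%. At 12 h it was 22.1% (21.1–23.1) against 18.7%, from an anti-FLAG list of 1656 events, 87.7% of which lay at a member. The 12 h events that did not last had lower shares, in the order 24, 48 and 12 h 21.3% (19.3–23.5), 8.59% (7.27–10.1) and 3.32% (2.52–4.36). The late events had 40.4% (39.7–41.1), 37.1% (36.4–37.8) and 0.721% (0.607–0.855), where all 24 h events had 40.5%, 33.9% and 5.33%. In the combined FoxA1 list the members' share was 82.6% (81.7–83.4), where all 12 h events had 75.5%, the others at 12 h 42.7% (40.2–45.2) and the late events 55.1% (54.3–55.8), beside 52.5% of all 24 h events.

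All 3 anti-FLAG lists from 12 h on held 1407 members (20.5%), and none of them held 1260 (18.3%). The members in all 3 stood high with anti-FoxA1, at median percentiles of 88.3, 96.5 and 96.3 at 12, 24 and 48 h. Those in none stood at 35.6, 59.7 and 58.2. Of the members found in no anti-FLAG list, 360 were absent from the combined FoxA1 list as well. Those 360 sites, 5.24% of the members, rested on the anti-FoxA1 time course alone.

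The other Forkhead factors shared few of the members, but more of them than of the late events. FoxP3 events lay at 767 members, or 11.2% (10.4–11.9), with 10.9% of all 12 h events, and at 2.16% (1.96–2.38) of late events. FoxL2 events lay at 536, or 7.81% (7.19–8.46), with 7.3% of all 12 h events, and at 2.76% (2.53–3.00) of late events. FoxC1 events lay at 398, or 5.80% (5.27–6.37), with 5.27% of all 12 h events, and at 0.859% (0.735–1.00) of late events. Read the other way, members held 34.2% (31.4–37.0) of the FoxC1 list, 17.4% (16.3–18.5) of the FoxP3 list and 7.25% (6.67–7.87) of the FoxL2 list. Of all 24 h events, 4.28% had a FoxP3, 3.63% a FoxL2 and 1.84% a FoxC1 event. None of these 3 lists held 81.5% of the members, and all 3 held 87.

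**Figure D3:**
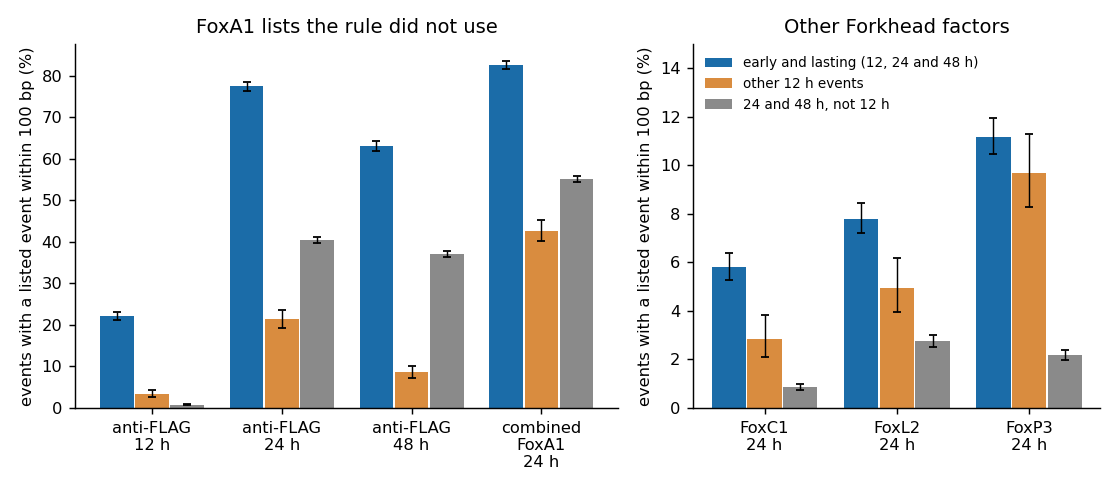
Share of events with an event of each list within 100 bp (vertical axes, %; the right panel has a smaller scale), for the early and lasting sites, the other 12 h events and the events found at 24 h and 48 h but not at 12 h. Bars are shares with Wilson 95% intervals; in the right panel the FoxP3 share is 11.2% for the early and lasting sites, 9.68% for the other 12 h events and 2.16% for the late events.

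Members had higher scores than late events, so the shares were set side by side within quartile groups of the 24 h score. The anti-FLAG 24 h shares of members were higher in every group, by 13.0, 8.67, 11.0 and 11.8 percentage points from the lowest to the highest. In the combined FoxA1 list they were higher by 18.7, 16.2, 13.3 and 13.2 points. In the anti-FLAG 12 h list they were 30.5% against 2.47% in the highest group. The anti-FLAG difference at 48 h was smaller. From the lowest to the highest quartile group the members' shares were 18.1%, 22.2%, 38.3% and 78.0%, and those of late events 15.8%, 23.5%, 41.6% and 71.3%, with intervals that overlapped in the lower 3 quartile groups. For FoxP3 the gap was wide in every quartile group. The members' shares were 6.74%, 9.63%, 9.63% and 12.1% and those of late events 1.63%, 1.92%, 2.49% and 2.49%, a ratio of 3.86 to 5.01 beside 5.17 overall. For FoxC1 the ratio ran from 2.37 to 9.06, and the intervals overlapped in the second quartile group, which held 9 members with a FoxC1 event. For FoxL2 it ran from 1.72 to 2.97.

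**Figure D4:**
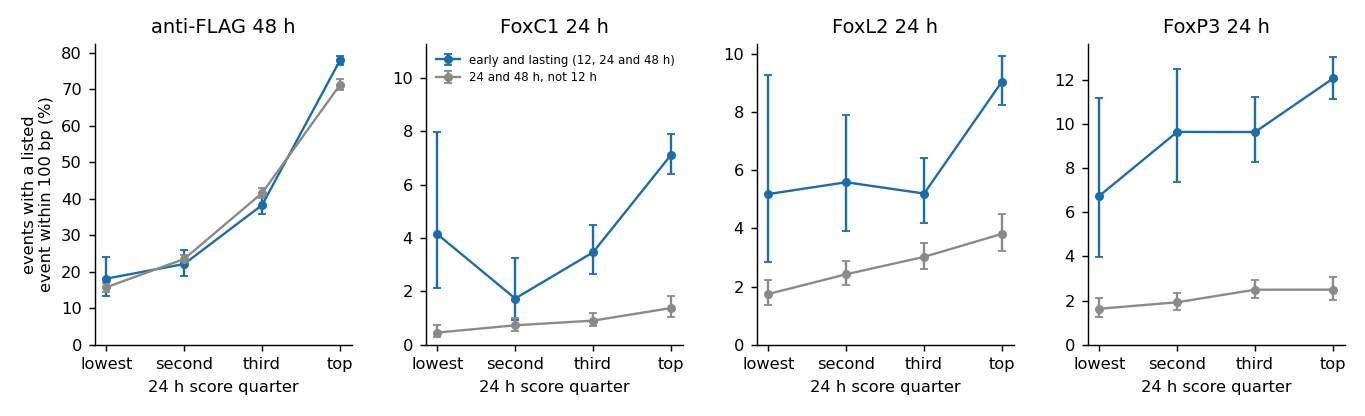
Share of events with a listed event within 100 bp (vertical axes, %, each panel with its own scale) by quartile group of the anti-FoxA1 24 h score (horizontal axes), for early and lasting sites and for events found at 24 h and 48 h but not at 12 h. Points are shares with Wilson 95% intervals; the lines cross for anti-FLAG 48 h, while for FoxP3 the early and lasting sites lie above in every quartile group.

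Set against the 12 h events that did not last, within quartile groups of the 12 h score, the pattern was another. The FoxP3 shares were 6.60%, 8.74%, 10.9% and 16.6% for members and 8.57%, 8.73%, 13.0% and 16.9% for the others, with intervals that overlapped in every quartile group. FoxC1 shares in the highest quartile group were 11.6% and 11.7%, and FoxL2 shares 12.0% and 13.0%. The anti-FLAG shares at 48 h differed widely in each quartile group, at 45.6%, 51.8%, 63.9% and 83.8% for members and 5.71%, 8.02%, 11.6% and 32.5% for the others. The FoxP3 and FoxC1 shares thus rose with the 12 h score in both classes, as did the FoxL2 share of members. The FoxL2 share of the others was highest in the top quartile group but did not rise steadily below it. The anti-FLAG list at 48 h detects the same protein at a time that split the classes, so its difference was in part built in.

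The members lay mostly away from gene ends. The gene table gives no strand, so the nearer of the start and the end of a protein-coding gene was used. The 6855 members on chromosomes 1 to 19, X and Y had a median distance of 20054 bp (quartiles 6714 and 58479). Within 1 kb lay 295 of them, or 4.30% (3.85–4.81), against 4.41% (3.47–5.58) of the 12 h events that did not last and 5.29% (4.98–5.63) of late events. Inside a protein-coding gene lay 48.3% (47.1–49.5) of members, 40.1% (37.6–42.6) of the 12 h events that did not last and 53.3% (52.6–54.1) of late events. Outside such genes and over 100 kb from any end lay 710 members. Chromosome X held 79 members, or 1.15% (0.924–1.43), near the 1.22% of all 12 h events. It held 4.41% of protein-coding genes. Of late events it held 1.58% (1.41–1.77).

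Most members stood alone, and the rest came in small groups. The median gap between neighbouring members was 124242 bp, yet 29.0% of members had another within 10 kb. Joining members no more than 10 kb apart gave 5734 groups, of which 4870 were single sites, 184 had 3 or more members and 14 had 5 or more. The 4 with the most members were as follows. At 28365 to 39479 bp from Prdm14, which encodes a repressor that holds ES cells in the naive state, lay 7 members. Another 7 spanned Mycn, a MYC-family growth regulator. The lower end of Jarid2, which encodes a DNA-binding partner of Polycomb repressive complex 2, had 6. A further 6 lay between Pibf1 and Klf5, the latter a Krüppel-like factor of pluripotency.

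Counted within 50 kb of either gene end, 32.5% of the 21887 protein-coding genes had a member. The genes with the most were Zfp97 with 13, Gm21119 with 12, Jarid2 and Zfp960 with 10 each, and Mycn, Cdk17, Kcnk5, Kidins220, Tpd52 and Rab31 with 9 each. Zfp97 and Zfp960 are neighbours, and most members counted at Zfp960 were counted at Zfp97 too. At Jarid2 the 24 h scores ran from 62 to 747, and 9 of the 10 members were in the anti-FLAG 24 h list, beside 77.4% of all members. At Mycn a pair of members 34 bp apart, about 39898 bp from the gene, reached 1000 at 24 h and 48 h with anti-FoxA1, at both times with anti-FLAG and in the combined list. They also had a FoxL2 event with a score of 265. Kcnk5, a potassium channel gene, had 24 h scores from 97 to 1000 and 5 of 9 members in the anti-FLAG 12 h list. Cdk17, a cyclin-dependent kinase gene, had 6 of 9 in that list, beside 22.1% of all members. Some of these members lay close together, 48 bp apart at Kcnk5 and at gaps of 78 and 100 bp at Cdk17.

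Of these genes 3 lie in families with near-identical copies, where reads are hard to place. Near the zinc finger genes Zfp960 and Zfp97 on chromosome 17, 4 members inside Zfp960 followed each other at gaps of 269, 146 and 275 bp, and another 4, inside Zfp97, did so at gaps of 262, 143 and 273 bp. The first set scored 134, 300, 289 and 60 at 12 h and the other 211, 295, 299 and 163. All 13 members at Zfp97 were in the anti-FLAG 24 h list but 3 were in the combined FoxA1 list. At Gm21119, a predicted gene, 10 of 12 were in the anti-FLAG 24 h list and 0 in the combined list. Of all members, 77.4% were in the anti-FLAG 24 h list and 82.6% in the combined list. Whether the lists treated reads with several possible positions differently is not stated, and its part in these counts was not tested.

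Genes that keep ES cells pluripotent had members nearby more often than genes at large. Of 20 pluripotency genes, 18 had a member within 50 kb, where 32.5% of all protein-coding genes did. These genes are short, with a median length of 10711 bp against 17169 bp for all. Klf5 had 9 members, all outside the gene, with 24 h scores from 110 to 482. Esrrb, an orphan nuclear receptor of the naive network, had 8, 7 of them inside the gene. The one with the highest 12 h score had 437, 1000 and 732 at 12, 24 and 48 h, and another had 262, 604 and 1000. Prdm14 had 8, all at lower coordinates than the gene, with 24 h scores from 85 to 437. Otx2, a factor of the exit from naive pluripotency and of the forebrain, had 5, the farthest of which scored 587, 1000 and 1000 and lay 41925 bp away. Pou5f1, the gene of Oct4, had 4, the nearest at 3397 bp, and Nanog had 2. Zfp42 and Lin28a had 0. Each of the 20 also had a late event within 50 kb, as did 13129 of the 21887 protein-coding genes. In the other gene lists that share ran from 50% for neural progenitor genes to 95% for endoderm regulators and for chromatin genes. It was 90% for housekeeping genes.

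**Figure D5:**
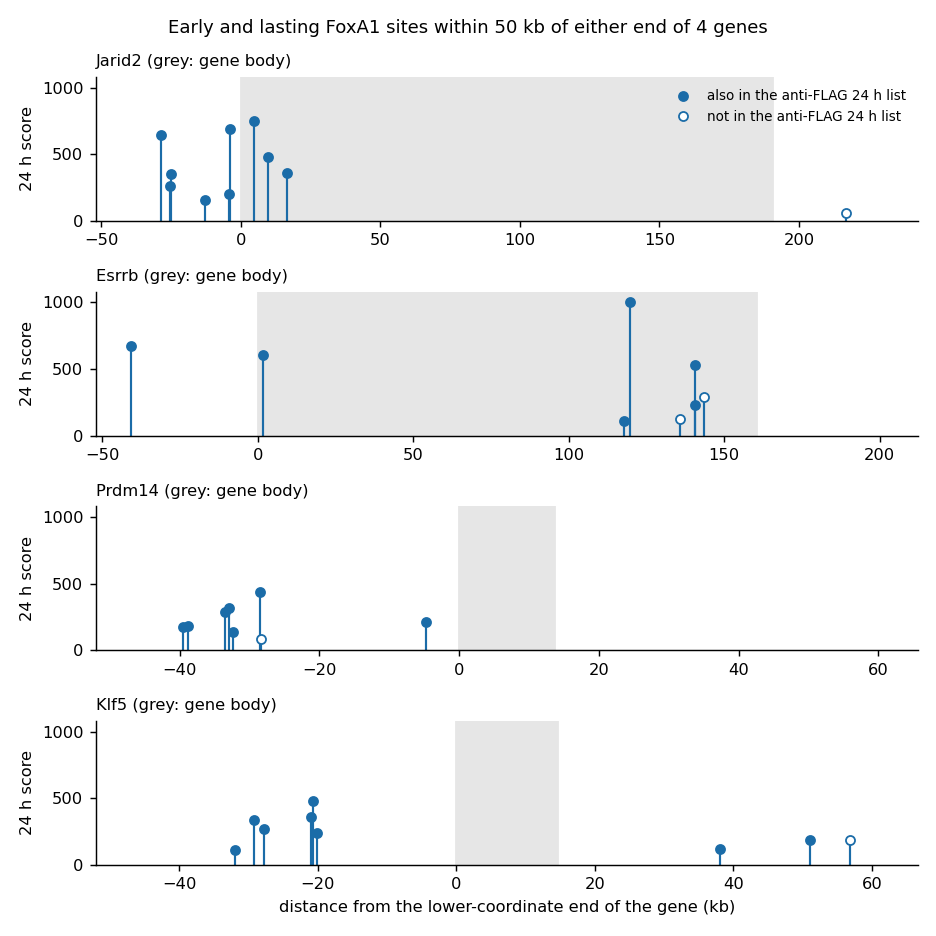
Early and lasting FoxA1 sites within 50 kb of either end of Jarid2, Esrrb, Prdm14 and Klf5: distance from the lower-coordinate end of the gene (horizontal axes, kb) against the anti-FoxA1 24 h score (vertical axes, authors' units, ceiling 1000). Grey marks the gene, filled points are sites also in the anti-FLAG 24 h list and open points are sites that are not. Of the sites shown, 9 of 10 at Jarid2, 6 of 8 at Esrrb, 7 of 8 at Prdm14 and 8 of 9 at Klf5 are filled, beside 77.4% of all members in that list.

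Chromatin regulators and co-factors of ES cells had a member near 16 of 20 genes, where 32.5% of all protein-coding genes had one. But these are long genes, with a median of 79184 bp. After Jarid2 came Mybl2, a cell cycle factor, with 7 members, and the co-regulator genes Zmynd8 and Ncoa3 with 6 each. At Zmynd8, 4 of the 6 members were in the FoxC1 list, beside 5.80% of all members. They were not all separate sites: a pair 85 bp apart had the same FoxC1 score of 54, and another lay 383 bp from that pair. Feedback targets of signalling pathways had a member near 13 of 17 genes, beside the same 32.5%. Etv5 had 8, whose 24 h scores ran from 129 to 610, and Smad7, an inhibitor of TGF-β signalling, had 4, with 24 h scores from 79 to 474. Dusp6 had 3, with 24 h scores of 163, 280 and 481, and Id2, an inhibitor of helix-loop-helix factors, had 3 with scores from 62 to 197.

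The genes FoxA1 is known for in endoderm and liver were nearer to the background. Of 20 endoderm regulators 8 had a member and of 20 liver genes 10 did, beside 8 of 20 housekeeping genes and 32.5% of all protein-coding genes. These counts are of genes, and neighbouring genes in any of the lists can share a member. The fibrinogen genes Fga, Fgb and Fgg shared 1 member, the apolipoprotein genes Apoa1 and Apoc3 shared another, and so did Pdx1 and Cdx2. Prox1, a regulator of liver and pancreas, had 2 members inside the gene, and 1 of them scored 229 at 12 h and 1000 at 24 h and 48 h. Hnf4a had 1 member with a 24 h score of 52, and Cdx2 had 1, 1100 bp from the gene, that scored 377, 52 and 1000 at the 3 times. At 24 h the Cdx2 site scored 206 with anti-FLAG and 518 in the combined list. Tat, the liver gene of tyrosine aminotransferase, had 2. The stronger lay 1789 bp from the gene and scored 510, 1000 and 1000, and the other lay 206 bp from it and scored 126, 386 and 122. Ahsg, which encodes a plasma protein made in liver, had a member 627 bp away that scored 55, 373 and 341. Trf, the transferrin gene, had 2 members within 50 kb with 24 h scores of 321 and 661. Both were nearer to other genes, the first 13 bp from Rab6b and the second inside Srprb. Fgb, the fibrinogen beta chain gene, had 1 with 560. Among housekeeping genes Ywhaz had 5, and Tfrc, Gapdh and Actb had 2 each.

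Mesoderm genes had a member near 7 of 20 and neural progenitor genes near 7 of 20, or 35% each, close to the 32.5% of all protein-coding genes. Snai2, a regulator of epithelial to mesenchymal change, had 3, with 24 h scores of 186 to 365 and 48 h scores of 61 to 104. Pdgfra had 2, and Mixl1 and Nkx2-5 had 1 each. Hes1, a Notch target, had 2, and Six3, Meis2 and Pax6 had 1 each. The sites at Pax6 and Six3 lay inside the genes and scored 242 and 264 at 24 h and 1000 and 657 at 48 h.

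Of 40 Forkhead family genes 17 had a member within 50 kb of either end, beside 32.5% of all protein-coding genes. Foxn2 and Foxp4 had 6 each, and Foxj2 and Foxd3 had 4 each. All of those counted at Foxj2 lay nearer to or inside Slc2a3 or Necap1. Foxp1 was not among the 17, although 8 members lay inside it, the nearest 80146 bp from an end. A member 14400 bp from Foxd3, a regulator of ES cells and neural crest, was at the score ceiling at 12, 24 and 48 h and had an event in the anti-FoxA1 lists at 0 h and 6 h. It scored 200 at 6 h with anti-FoxA1, and 298, 1000 and 664 at 12, 24 and 48 h with anti-FLAG. In the lists of FoxC1, FoxL2 and FoxP3 it scored 64, 59 and 202. Foxa1 itself, on chromosome 12, had no member within 50 kb, and the nearest lay 305491 bp away. The Rosa26 locus had 1, 28946 bp away.

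At 12 h, 19 members were at the score ceiling, and 17 of these were there at 24 h and 48 h too. Their scores do not rank these 17, and 10 of them, taken without regard to order, lay in or near Ccnt2, Stab2, Msrb3, Hs3st3b1, Rptor, Kidins220, Osbpl11, Man2a1 and Dnaic1. These genes serve unrelated functions: Ccnt2 encodes a cyclin of transcription elongation, Stab2 a scavenger receptor of liver sinusoids, Rptor a subunit of mTORC1 and Dnaic1 a dynein of motile cilia. Inside Dnaic1 lay 3 members at the ceiling, which shared a 6 h event with a score of 232, the highest at 6 h. The FoxC1 and FoxL2 events there scored 846 and 450, and there was no FoxP3 event within 100 bp.

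Some members were already listed at 6 h. The 6 h anti-FoxA1 list had 86 events, of which 82 lay at a member, and 100 members had one, since a 6 h event can serve several. Those 100 stood at median percentiles of 98.2, 98.9 and 98.1 at 12, 24 and 48 h. In all 3 anti-FLAG lists were 81 of them, beside 20.5% of all members. The anti-FLAG lists at 12, 24 and 48 h held 84, 96 and 89 of the 100. Members in the top 10% of the 12 h list had near shares there, 80.0%, 98.2% and 93.0%. FoxP3 events lay at 37 of the 100 (28.2–46.8%), FoxC1 events at 33 (24.6–42.7%) and FoxL2 events at 21 (14.2–30.0%). Among the 819 members in the top 10% of the 12 h list the shares were 21.1% (18.5–24.1), 17.9% (15.5–20.7) and 17.7% (15.2–20.5). Inside a protein-coding gene lay 46 of the 100, and within 1 kb of a gene end 3, beside 48.3% and 4.30% of all members. Several members in the 6 h list and all 3 anti-FLAG lists tied at a 12 h score of 1000. Of these, 10 lay in or near Ccnt2, Stab2, Msrb3, Hs3st3b1, Kidins220, Dnaic1, Foxd3 and Bcl3, an IκB family gene. None of the 18039 late events had an anti-FoxA1 event at 6 h. Late events have no 12 h event by definition, and 82 of the 86 events at 6 h lay at a member. That absence was thus largely set by the rule.

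Before Dox was removed, at 0 h, the anti-FoxA1 list had 15 events, 14 of them at a member, and 15 members had one. They included the Foxd3 site, a pair inside Pphln1, and sites whose nearest genes were Atf7ip at 27390 bp and Lpp at 46274 bp. The 0 h anti-FLAG list had no event at a member. The anti-FoxA1 antibody thus listed these sites in Dox, and the source of that signal was not tested.

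Of the 87 members in all 3 other Forkhead lists, 80 were also in the combined FoxA1 list. Those 87 had median percentiles of 85.3, 91.1 and 88.5 at 12, 24 and 48 h, against 53.5, 83.7 and 83.4 for the 5594 members in none. The 10 of the 80 with the highest 12 h scores had as nearest genes Foxd3, Tafa3, 2610301B20Rik, Egln3, Themis, Zmym5, Kcnk5, Pecam1, Camk1d and Anapc10. The site at Tafa3 was inside the gene. The others lay outside, from 10664 bp away at Pecam1 to 475014 bp at 2610301B20Rik. At Egln3, which encodes a hypoxia-inducible prolyl hydroxylase, the site lay 108029 bp from the gene. It scored 806, 1000 and 1000 with anti-FoxA1 and 398, 71 and 126 for FoxC1, FoxL2 and FoxP3. The site 32107 bp from Themis, a T cell gene, had a FoxP3 event at 1000 and FoxC1 and FoxL2 events at 306 and 116. Inside Tafa3 the 3 scored 255, 180 and 174.

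The gene ends that lay closest to a member were those of Padi3, Grifin and Dip2c, at 3 bp, and of H2-T24, Frat1, Rab6b, Clec4a1, Uck2, Pnmal1 and Inip, at 5 to 17 bp. Their 12 h scores ran from 47 at Uck2 to 138 at Rab6b, and none was in the 6 h list. The Inip site was in the anti-FLAG 12 h list with a score of 53 and had a FoxL2 event with a score of 457. The Dip2c site scored 50, 43 and 47 at the 3 times, close to the lowest score of each list.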

How the data were processed

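The deposited lists hold 1 bp binding events called by the authors with ChExMix, per the file headers, and the score of each event is the authors' own, capped at 1000 on a scale that neither labels nor headers state. BWA 0.7.17-r1188, Picard, SAMtools and the build mm10 are named in the submitters' processing notes. The lists carry no reads, so depth is unknown and intervals (Wilson, 95%) cover counting error in events alone. From the lists, events were matched within 100 bp, scores were turned into percentiles within a list (ties at their mean rank), and distances were taken to both ends of genes in RefSeq's GRCm38.p6 table, with Python 3.11.15, numpy 2.4.6, pandas 2.3.3 and scipy 1.17.1. The matching step was tested on simulated data.

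Members and gene lists were chosen with earlier results of these data known, so nothing was tested against chance. Late events were those of the 24 h list with a 48 h but no 12 h event within 100 bp. Quartile groups were cut on the whole 12 h or 24 h list. The 9 gene lists held 197 symbols, all matched. Genes named were the 10 with the most members within 50 kb, up to 4 per gene list, those nearest 10 members with the highest 12 h score and 10 in the 6 h and all 3 anti-FLAG lists (scores tied at the ceiling, and the ties left were taken in file order), the first 10 in every factor's list, the 10 nearest gene ends, Foxa1 and Rosa26. Other names (Pou5f1, Nanog, Zfp42, Lin28a, Foxp1, genes that share a member, genes at the 0 h sites and at printed sequences, and the groups of neighbouring members) were chosen after their values were seen, as was the choice of printed sequences and the search of promoter windows. Some items are not reported here.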

Additional observations from a re-analysis of the deposited data

How the results depend on the processing

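No replicate could be left out, since each time point had 1 library. No paired analysis was possible because each antibody and time had 1 library, all numbered 1, and no result comes from a test. The planned motif search around every event was not run, as no genome sequence was given, and RefSeq promoter windows were searched in its place. The share of 12 h events found again (82.3%) was 71.2% with matching within 50 bp and 86.5% within 200 bp, 92.8% for events at or above the median 12 h score, 89.2% with the 24 h list alone and 86.2% with the 48 h list alone. With 50 bp in the rule and in the overlap, the members' shares were 20.8%, 71.7% and 59.8% in the anti-FLAG lists at 12, 24 and 48 h, 80.4% in the combined FoxA1 list, 4.75% for FoxC1, 6.58% for FoxL2 and 7.86% for FoxP3. With 200 bp they were 79.6% and 64.2% for anti-FLAG at 24 and 48 h, 84.0% for the combined list, 8.84% for FoxL2 and 12.8% for FoxP3. Members in the top quartile group of the 24 h list had 30.5%, 90.9% and 78.0% in the anti-FLAG lists, 88.9% in the combined list, 7.11% for FoxC1, 9.05% for FoxL2 and 12.1% for FoxP3. Gene ends lay within 500 bp of 2.25% of members and within 5 kb of 19.8%, and 57.6% lay inside genes of all types. At 20 kb, where 18.3% of all protein-coding genes had a member, the genes with one numbered 14 of 20 for pluripotency, 3 of 20 for endoderm, 5 of 20 for liver, 8 of 17 for signalling, 11 of 40 for Forkhead, 3 of 20 for mesoderm and 3 of 20 for housekeeping genes. At 100 kb, where 48.1% of all did, they numbered 18 of 20 for pluripotency, 13 of 20 for endoderm and 11 of 20 for mesoderm. Keeping autosomes alone moved none of 8 results beyond their intervals, and leaving out unplaced sequence and sites of the 0 h lists, chosen after seeing the data, moved none of 7.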
